A study of Bos taurus with 56 samples.

Results

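ENSBTAG00000000744, ENSBTAG00000013842, ENSBTAG00000023600 and ENSBTAG00000019115 are 4 of the 20791 bovine genes in the deposited tables, selected because their mean transcript levels differed by dietary energy in opposite directions in Nguni and Bonsmara bulls. They were found by their Ensembl gene IDs. Their choice rested on how far the diet effect differed between the breeds: in that contrast they had the 2 smallest p-values among genes with a higher effect in Nguni and the 2 smallest among genes with a lower one. Every value of that contrast, and of diet within a breed or breed within a diet, is therefore given as a description and supports nothing. The files do not pair IDs with names, and the gene table supplied for cattle matched 0 of them, so the genes have no symbol, function or sequence here.

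Muscle transcripts came from the Longissimus dorsi, the long muscle along the back, of bulls held in a feedlot for 120 days. The groups were Nguni, a Sanga breed, and Bonsmara, a Sanga-related breed, each on a diet with 12.0 MJ (high energy) or 10.9 MJ (low energy) of metabolizable energy per kg. After the part of the title that names a library within a set (B6_1, B6_2, B6_3) was removed, 14 title stems remained with 3 libraries each: 5 stems of Nguni on high energy, 3 of Nguni on low energy, 3 of Bonsmara on high energy and 3 of Bonsmara on low energy. The libraries of a stem were summed and n counts stems, but the labels do not state that a stem is an animal, so that p-values measure only the spread among these samples, which may be technical.

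Skeletal muscle takes up glucose and fatty acids, stores glycogen and, in the cells between its fibres, fat, and the energy of the diet changes how much of each is burned or stored. Breeds differ in growth rate, maturity and fat deposition, so the same diet need not move a transcript by the same amount in each. A gene whose diet response differs in direction between breeds is the extreme form of what animal breeders call a genotype by environment interaction, in which an average over breeds hides the response.

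Libraries held 8156040 to 78224599 counts and summed stems 34456677 to 101757197, and B6_1 alone gave 76.9% of the counts of B6. Libraries N008_3 and N215_2 stood apart: in them 259 and 333 genes were at least 8-fold above both other libraries of the stem (with 0.5 added to each CPM), against at most 8 genes in any of the remaining 40. The labels and the tables also disagree on a pair of Nguni stems. N11 is labelled high energy but stands in the tables with the low energy Nguni, and N1 is labelled low energy but stands with the high energy Nguni. Groups here follow the labels, with the exchange of these stems run as an alternative. The tissue could not be checked against muscle markers, because no gene could be named. In whole muscle, fewer cells of a type and less RNA per cell cannot be told apart.

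All 4 genes passed the filter on low counts, with 13219 genes tested. Their levels are CPM, counts relative to a common library total scaled by the trimmed mean of M-values (TMM). Because the files give no gene lengths, levels are compared between samples and not between genes. A stem held 310 to 1242 counts of ENSBTAG00000000744, 74 to 340 of ENSBTAG00000013842, 445 to 3470 of ENSBTAG00000023600 and 421 to 1799 of ENSBTAG00000019115. The counting error alone was at most 5.68%, 11.6%, 4.74% and 4.87% of a stem's count in that order.

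ENSBTAG00000000744 was higher on high energy in Nguni and lower on high energy in Bonsmara. In Nguni it had 25.6, 22.7, 10.6, 20.6 and 14.1 CPM in stems N35, N008, N11, N14 and N37 on high energy, and 10.8, 9.03 and 11.1 CPM in N33, N215 and N1 on low energy. In Bonsmara it had 10.7, 8.57 and 8.96 CPM in B6, B25 and B199 on high energy and 16.8, 15.6 and 20.4 CPM in B11, B51 and B126 on low energy. The Bonsmara groups did not overlap, while in Nguni the single high energy stem N11 lay among the low energy stems. N11 is also one of the stems whose diet is in doubt: once N1 and N11 were exchanged, the Nguni groups no longer overlapped. The margin was small, from N33 at 10.8 CPM to N1 at 11.1 CPM, with counting errors of 5.68% and 4.55%. With plain library totals it was wider, from N215 at 9.16 CPM to N1 at 13.5 CPM.

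From lowest to highest, the group means of ENSBTAG00000000744 were 9.40 ± 1.12 CPM (SD, n = 3) for high energy Bonsmara, 10.3 ± 1.14 (n = 3) for low energy Nguni, 17.6 ± 2.48 (n = 3) for low energy Bonsmara and 18.7 ± 6.19 (n = 5) for high energy Nguni. The lower 2 groups overlapped each other, as did the upper 2. The log2 difference of high over low energy was 0.86 (SE 0.26) in Nguni and -0.91 (SE 0.29) in Bonsmara. On the low energy diet it was lower in all 3 Nguni stems than in all 3 Bonsmara stems, with a log2 difference of -0.77 (SE 0.29) for Nguni over Bonsmara. On the high energy diet the log2 difference was 0.99 (SE 0.27), and the groups met only at N11 with 10.63 CPM and B6 with 10.67 CPM.

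ENSBTAG00000013842 had the same order of groups at the fewest counts of the 4 genes. In Nguni it had 5.87, 6.20, 4.18, 5.61 and 4.26 CPM in N35, N008, N11, N14 and N37 on high energy and 2.59, 4.43 and 3.40 CPM in N33, N215 and N1 on low energy. In Bonsmara it had 2.78, 2.32 and 3.24 CPM in B6, B25 and B199 on high energy and 4.26, 5.74 and 5.08 CPM in B11, B51 and B126 on low energy. The Bonsmara groups were separate. In Nguni the low energy stem N215 lay above the high energy stems N11 and N37.

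Its group means were 2.78 ± 0.460 CPM (SD, n = 3) for high energy Bonsmara, 3.47 ± 0.926 (n = 3) for low energy Nguni, 5.03 ± 0.742 (n = 3) for low energy Bonsmara and 5.22 ± 0.941 (n = 5) for high energy Nguni, and each group overlapped the next. The log2 difference of high over low energy was 0.59 (SE 0.25) in Nguni, the smallest of the 8 such values, and -0.86 (SE 0.27) in Bonsmara. Nguni over Bonsmara was 0.91 (SE 0.25) on high energy, where every Nguni stem lay above every Bonsmara stem, and -0.53 (SE 0.27) on low energy, where the ranges overlapped.

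ENSBTAG00000023600 ran the other way and was the most even of the 4 in Nguni on high energy. In Nguni it had 10.3, 12.0, 14.1, 11.7 and 14.3 CPM in N35, N008, N11, N14 and N37 on high energy and 27.8, 21.5 and 18.3 CPM in N33, N215 and N1 on low energy. In Bonsmara it had 40.8, 30.7 and 22.8 CPM in B6, B25 and B199 on high energy and 25.2, 17.8 and 16.3 CPM in B11, B51 and B126 on low energy. The Nguni groups were separate, the only separate Nguni pair among the 4 genes. In Bonsmara the low energy stem B11 lay above the high energy stem B199.

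Group means of ENSBTAG00000023600 were 12.5 ± 1.69 CPM (SD, n = 5) for high energy Nguni, 19.8 ± 4.74 (n = 3) for low energy Bonsmara, 22.5 ± 4.84 (n = 3) for low energy Nguni and 31.5 ± 9.02 (n = 3) for high energy Bonsmara. The lowest group lay below every stem of the others, and the remaining neighbours overlapped. High over low energy gave a log2 difference of -0.85 (SE 0.23) in Nguni and 0.67 (SE 0.26) in Bonsmara, and the Bonsmara value was 0.43 without stem B6. Nguni over Bonsmara was -1.33 (SE 0.22) on high energy, with all 5 Nguni stems below all 3 Bonsmara stems. On low energy it was 0.19 (SE 0.26), with no settled sign or size: it was 0.68 when only the libraries with title suffix 1 were used, -0.13 with suffix 2 and 0.013 without stem N33.

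ENSBTAG00000019115 followed the same order as ENSBTAG00000023600. In Nguni it had 9.72, 14.9, 13.3, 13.3 and 16.4 CPM in N35, N008, N11, N14 and N37 on high energy and 26.7, 24.5 and 13.7 CPM in N33, N215 and N1 on low energy. In Bonsmara it had 21.2, 32.9 and 23.6 CPM in B6, B25 and B199 on high energy and 15.2, 18.3 and 11.5 CPM in B11, B51 and B126 on low energy. The Bonsmara groups did not overlap. In Nguni the low energy stem N1 lay among the high energy stems.

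The means of ENSBTAG00000019115 were 13.5 ± 2.48 CPM (SD, n = 5) for high energy Nguni, 15.0 ± 3.38 (n = 3) for low energy Bonsmara, 21.7 ± 6.98 (n = 3) for low energy Nguni and 25.9 ± 6.18 (n = 3) for high energy Bonsmara, with each group overlapping the next. High over low energy was -0.68 (SE 0.25) on the log2 scale in Nguni and 0.79 (SE 0.29) in Bonsmara, and with limma the Nguni value was -0.25. Nguni over Bonsmara was -0.94 (SE 0.25) on high energy, with the ranges apart, and 0.53 (SE 0.29) on low energy, with the ranges overlapping.

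**Figure D1:**
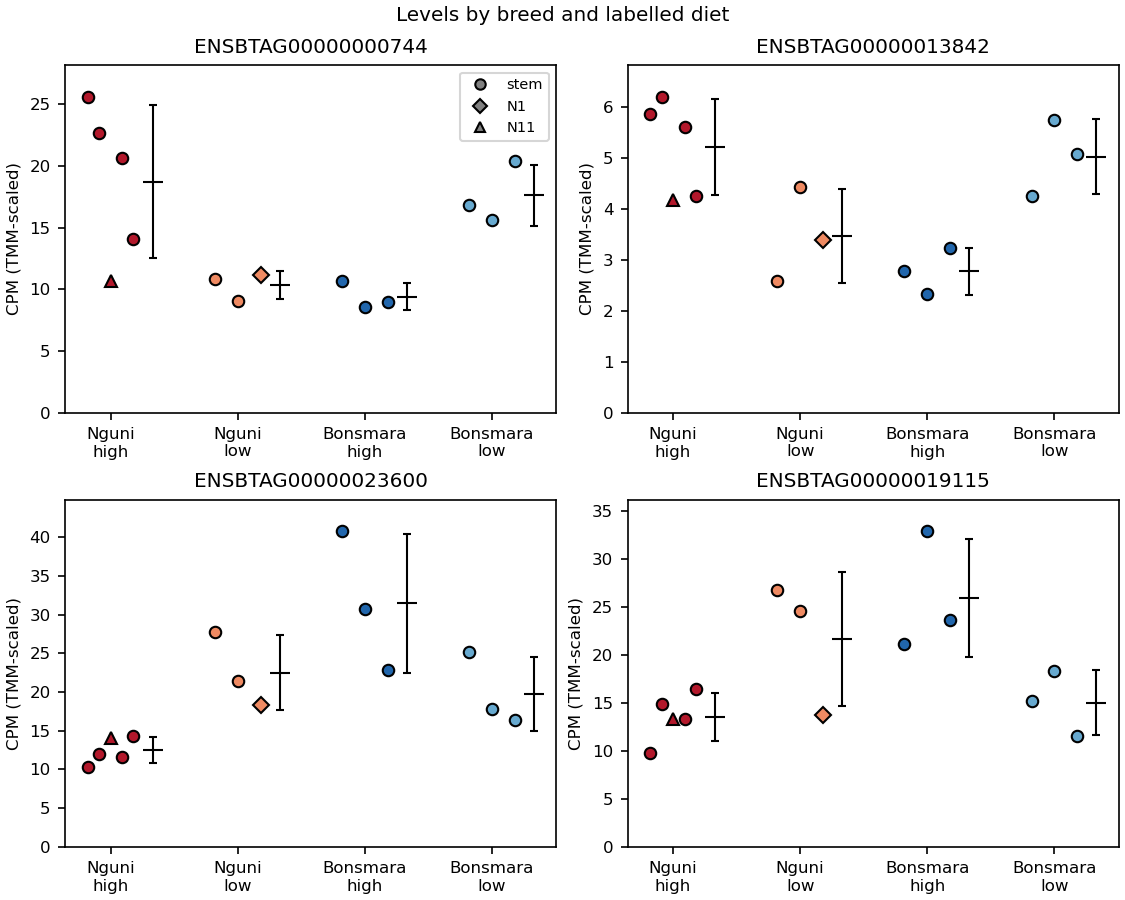
Level of each of the 4 genes (TMM-scaled CPM, linear axis from 0) in the 4 groups of breed and diet, 1 marker per stem, with the group mean and SD; N1 is a diamond and N11 a triangle. ENSBTAG00000000744 and ENSBTAG00000013842 are highest in Nguni on high energy (means 18.7 and 5.22 CPM), and ENSBTAG00000023600 and ENSBTAG00000019115 are highest in Bonsmara on high energy (means 31.5 and 25.9 CPM).

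Side by side, the groups of a diet were apart in Bonsmara for 3 of the 4 genes and in Nguni for 1, ENSBTAG00000023600. Over all 13219 tested genes, the shares with groups apart were 17.8% in Bonsmara and 1.84% in Nguni. With TMM-scaled CPM none of the 4 was apart in opposite directions in both breeds, which 10 genes (0.0756%) were. Between breeds, 3 of the 4 were apart on high energy and 1, ENSBTAG00000000744, on low energy, against 6.02% and 8.98% of all genes. With N1 and N11 exchanged, all 4 were apart between breeds on high energy, against 7.01% of all genes, since N1 at 11.1 CPM of ENSBTAG00000000744 then took the place of N11 as the lowest high energy Nguni stem. On low energy it was again ENSBTAG00000000744 alone, against 12.7% of all genes. These counts are for TMM-scaled CPM and describe the contrast the genes were chosen by. With plain library totals and stems as labelled, the genes apart changed in part. ENSBTAG00000023600 was then apart by diet in opposite directions in both breeds. Its low energy Bonsmara stems reached 22.8 CPM, below every high energy one. ENSBTAG00000019115 overlapped by diet in Bonsmara, with B6 at 17.7 CPM and B51 at 21.4 CPM. ENSBTAG00000013842 overlapped between breeds on high energy, with N11 at 3.46 CPM and B199 at 3.75 CPM.

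With N1 and N11 exchanged, so that each joined the group it has in the tables, the diet response of each gene kept its direction in Nguni. The log2 difference went from 0.86 to 0.89 for ENSBTAG00000000744, from 0.59 to 0.44 for ENSBTAG00000013842, from -0.85 to -0.66 for ENSBTAG00000023600 and from -0.68 to -0.66 for ENSBTAG00000019115. So 1 gene moved away from 0 and the others towards it. The gene with separate Nguni groups changed as well: it was ENSBTAG00000000744 in place of ENSBTAG00000023600, against 1.8% of all genes. The high energy Nguni stems of ENSBTAG00000023600 then reached 18.3 CPM and overlapped low energy Bonsmara, and its breed difference on low energy went from 0.19 to 0.10. In the exchanged arrangement ENSBTAG00000000744 was apart in opposite directions in both breeds, as were 0.272% of all genes.

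Without both stems, the Nguni differences were 1.07 (SE 0.27), 0.64 (SE 0.30), -1.02 (SE 0.27) and -0.91 (SE 0.27) in the same order of genes, and each was larger in size than under either placement of N1 and N11. For ENSBTAG00000000744, N11 lay within the low energy range and N1 within the high energy range, of which N11 was the lowest stem. For ENSBTAG00000013842, N11 lay within the low energy range, while N1 lay below every high energy stem. For ENSBTAG00000023600, N11 lay below every low energy stem, and N1 was the lowest of the low energy stems without reaching the high energy ones. For ENSBTAG00000019115, N1 lay within the high energy range and N11 below every low energy stem. Which diet these stems received was not tested.

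**Figure D2:**
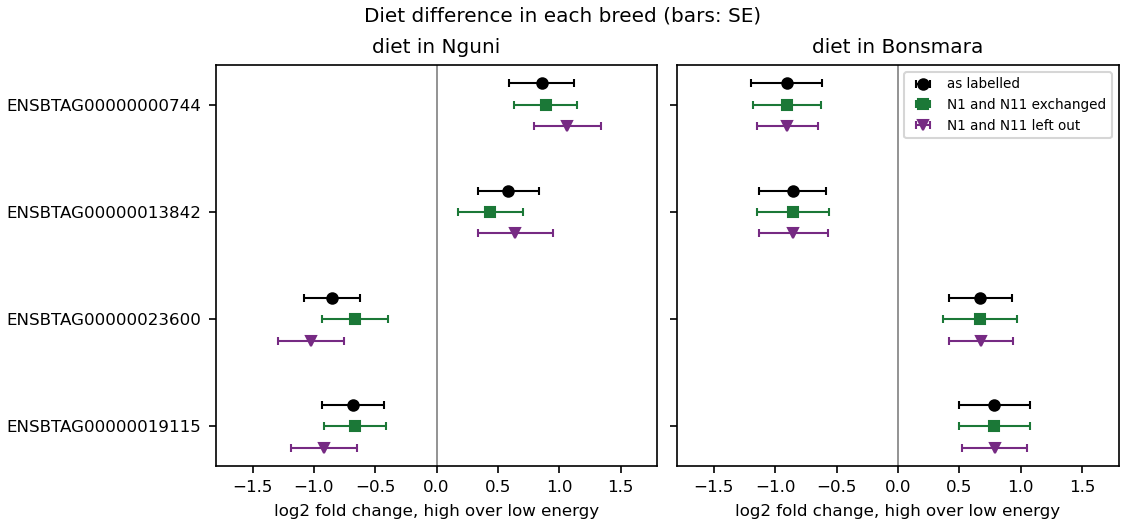
Log2 difference of high over low energy in Nguni (left) and in Bonsmara (right) for the 4 genes, with SE bars, as labelled, with N1 and N11 exchanged, and without both. In Nguni the values as labelled lie at 0.86, 0.59, -0.85 and -0.68 from top to bottom, and in Bonsmara at -0.91, -0.86, 0.67 and 0.79; all 3 placements of N1 and N11 give the same sign.

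The breed difference of the diet effect, the contrast by which the genes were chosen, was 1.76 (SE 0.39) on the log2 scale for ENSBTAG00000000744, 1.44 (SE 0.37) for ENSBTAG00000013842, -1.52 (SE 0.34) for ENSBTAG00000023600 and -1.46 (SE 0.38) for ENSBTAG00000019115. The median size of this difference over all tested genes was 0.41. By unadjusted p in edgeR's quasi-likelihood test they held ranks 1, 3, 2 and 5 among all genes. None passed the adjusted threshold of 0.05: each had an adjusted p of 0.855 in edgeR, as did the genes around them. The share of all genes called in that contrast was 0% after adjustment, and 4.18% (552 genes) had an unadjusted p under 0.05, while DESeq2 and limma also called 0, with 700 and 1989 genes at an unadjusted p under 0.05.

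The values on either side of the choice were close. Just inside it were ENSBTAG00000013842 with an unadjusted edgeR p of 0.00147 and ENSBTAG00000019115 with 0.00180. Just outside were a gene with a higher effect in Nguni (log2 6.68, SE 1.65, p of 0.00152) and one with a lower effect (log2 -2.69, SE 0.706, p of 0.00180). Both had larger differences than any of the 4 genes, with larger errors. The 4 genes had smaller differences and smaller errors than these neighbours.

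The size of the difference rested on single stems only in part. It ranged from 1.62 (without N35) to 1.93 (without N11) for ENSBTAG00000000744, from 1.30 (without N33) to 1.68 (without N215) for ENSBTAG00000013842, from -1.71 (without B199) to -1.27 (without B6) for ENSBTAG00000023600 and from -1.71 (without N1) to -1.24 (without B25) for ENSBTAG00000019115. Without the outlying libraries N008_3 and N215_2 it was 1.70, 1.46, -1.55 and -1.47 in the same order. Plain library totals in place of TMM gave 2.02, 1.65, -1.25 and -1.16, while moving the median difference of all genes from -0.02 to 0.21. Relative to that median the plain values were 1.81, 1.44, -1.46 and -1.37, near those with TMM.

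Single libraries also varied inside a stem. The SD of log2 CPM among libraries of a stem was 0.35 for ENSBTAG00000000744, 0.49 for ENSBTAG00000013842, 0.28 for ENSBTAG00000023600 and 0.30 for ENSBTAG00000019115. Between stems of a group it was 0.35, 0.25, 0.29 and 0.35. A stem is the sum of 3 libraries, so these SDs have unlike units and do not divide the spread into parts. For ENSBTAG00000013842, with the largest SD among libraries, a single library held as few as 12 counts.

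The largest gap inside a stem was 3.21-fold, between libraries of N1 for ENSBTAG00000013842. The largest gaps of the other genes were 2.28-fold in N11 for ENSBTAG00000000744, 2.32-fold in B6 for ENSBTAG00000023600 and 2.01-fold in N11 for ENSBTAG00000019115. The stems with the widest gaps thus included both N1 and N11. The tightest group was that of ENSBTAG00000023600 in Nguni on high energy, whose 15 libraries spanned 9.59 to 15.0 CPM. The 9 low energy Nguni libraries of that gene spanned 14.7 to 38.9 CPM, so the ranges of single libraries met by a small margin.

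**Figure D3:**
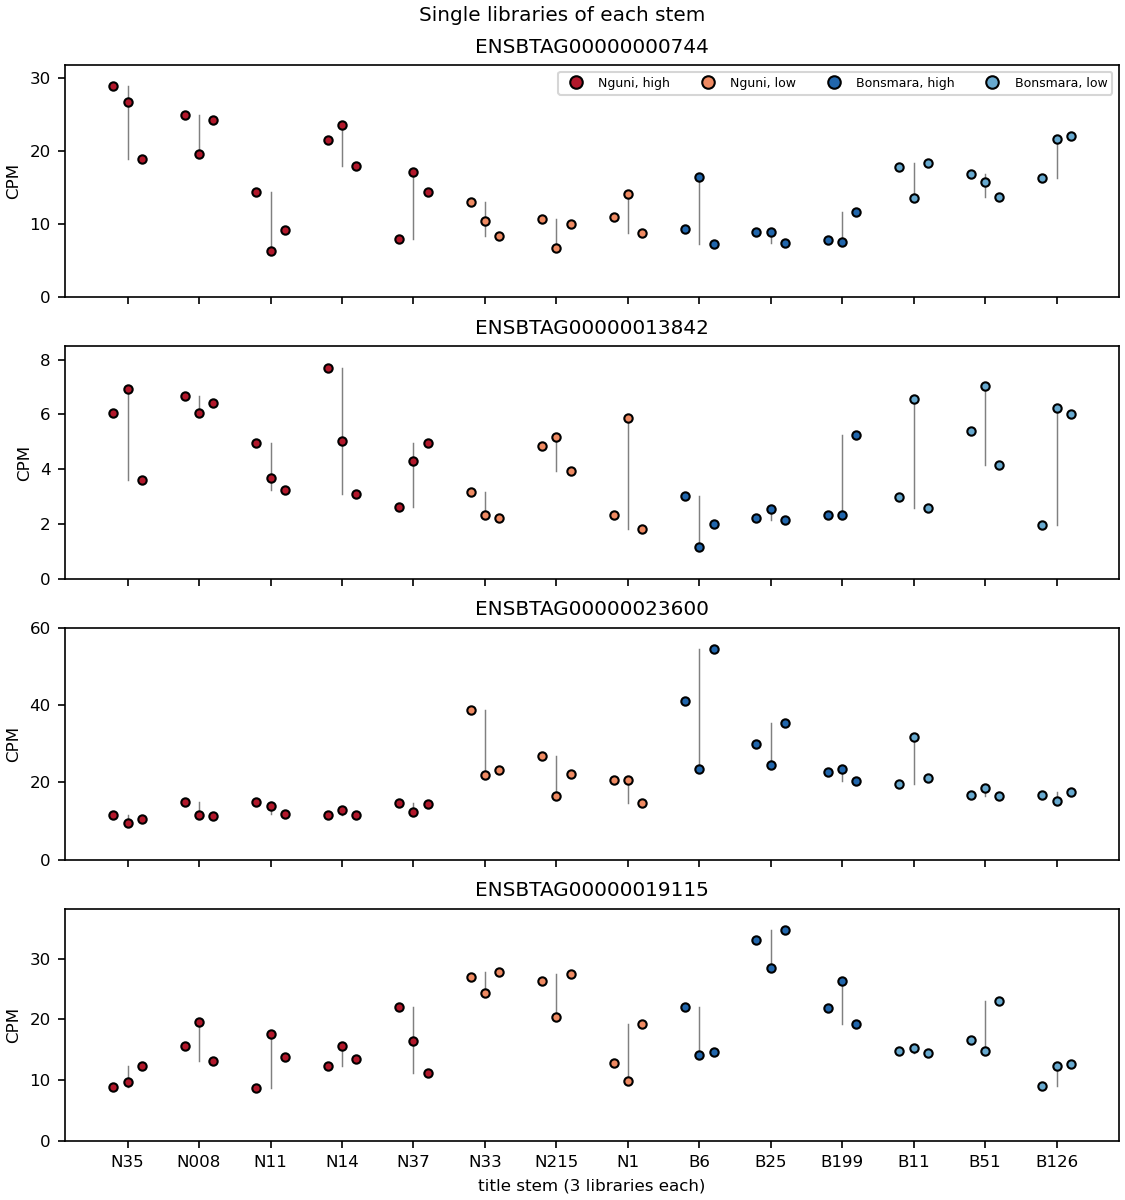
Level of each gene (TMM-scaled CPM, linear axis from 0) in each of the 42 libraries, 3 points per stem joined by a line and coloured by group. The libraries of ENSBTAG00000023600 in Nguni on high energy stay between 9.59 and 15.0 CPM, while those of ENSBTAG00000013842 differ by up to 3.21-fold within stem N1.

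When only 1 library of each stem was used, all 12 values of the breed difference of the diet effect (4 genes, 3 suffixes) kept their sign, as did all 12 of diet in each breed. Sizes varied more. With suffix 1, 2 or 3 alone, the difference was 1.68, 1.40 or 1.95 for ENSBTAG00000000744, 1.11, 1.85 or 1.13 for ENSBTAG00000013842, -1.93, -0.90 or -1.72 for ENSBTAG00000023600 and -1.65, -0.99 or -1.37 for ENSBTAG00000019115. Suffix 2 gave the smallest size for 3 of the 4 genes and the largest for ENSBTAG00000013842. The labels do not state whether libraries of a stem share a source, and these values were not counted as replication.

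The parts of this difference also changed in size with the suffix used. For ENSBTAG00000013842 the diet difference in Nguni went from 0.59 to 0.18 with suffix 2 alone. In Bonsmara it went from -0.86 to -0.43 with suffix 1 or suffix 3 and to -1.67 with suffix 2. Its breed difference on high energy was 0.45 with suffix 3 and 1.32 with suffix 2, against 0.91 with all libraries, and on low energy it was -0.018 with suffix 1, against -0.53. The gene with the fewest counts thus had parts whose size depended on the library taken.

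For ENSBTAG00000023600 the diet difference in Bonsmara was 0.16 with suffix 2 and 0.99 with suffix 3, against 0.67. For ENSBTAG00000019115 it was 0.44 with suffix 3, against 0.79 in Bonsmara, and -0.25 with suffix 2, against -0.68 in Nguni, and its breed difference on high energy was -0.57 with suffix 2, against -0.94. For ENSBTAG00000000744 the diet difference in Bonsmara was -0.60 with suffix 2, against -0.91. Of the suffixes, suffix 2 gave the smallest diet difference in Bonsmara for 2 of the 4 genes and the largest for ENSBTAG00000013842.

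Contrasts that averaged over the other factor use the same group means and errors by which the genes were chosen, so their values are a description too. For diet averaged over breeds the log2 differences were -0.02 (SE 0.19) for ENSBTAG00000000744, -0.13 (SE 0.18) for ENSBTAG00000013842, -0.09 (SE 0.17) for ENSBTAG00000023600 and 0.05 (SE 0.19) for ENSBTAG00000019115, with an adjusted p of 0.999 each in edgeR. Choosing opposite effects of similar size in the breeds leaves little in their average, so nothing is read from these values. Over all genes 0% were called after adjustment and 3.28% (434 genes) had an unadjusted p under 0.05, with 0 of the 4 among them.

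Averaged over diets, ENSBTAG00000023600 had a log2 difference of Nguni over Bonsmara of -0.57 (SE 0.17). Its unadjusted p was 0.00477 and its adjusted p was 0.569 in edgeR, above the threshold. Its adjusted p ranged from 0.244 with limma to 0.999 with suffix 3 alone over the alternatives, and was 0.266 with DESeq2. The other genes had log2 differences of 0.11 (adjusted p of 0.900 in edgeR) for ENSBTAG00000000744, 0.19 (adjusted p of 0.793) for ENSBTAG00000013842 and -0.20 (adjusted p of 0.788) for ENSBTAG00000019115. Of all genes, 0% were called after adjustment and 8.65% (1144 genes) had an unadjusted p under 0.05, with 1 of the 4, ENSBTAG00000023600, among them.

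Over the 14 stems the 4 genes fell into opposed pairs. Pearson's r of log2 CPM was 0.82 for ENSBTAG00000000744 with ENSBTAG00000013842 and 0.76 for ENSBTAG00000023600 with ENSBTAG00000019115. Across the pairs it was -0.70 for ENSBTAG00000000744 with ENSBTAG00000023600, -0.79 for ENSBTAG00000000744 with ENSBTAG00000019115, -0.83 for ENSBTAG00000013842 with ENSBTAG00000023600 and -0.73 for ENSBTAG00000013842 with ENSBTAG00000019115. The group means that chose the genes fix much of these values, which are a description.

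The deviations of stems from their group mean entered the choice through their size, since a small spread gives a small p, but not through which stems of a group were high or low. Within groups all 6 values of r had the same sign as over all stems, but they were smaller: 0.45 and 0.41 within the pairs, and -0.30, -0.45, -0.63 and -0.24 across them in the order above. By an exact permutation test of stems within groups (two-sided), the strongest was ENSBTAG00000013842 with ENSBTAG00000023600, with a p of 0.0311 and an adjusted p of 0.186 over the 6 pairs. Its Spearman's rho was -0.56 (exact permutation p of 0.0701), and without the 2 stems farthest from the median of the first gene r was -0.70. No pair passed after adjustment. The next was ENSBTAG00000000744 with ENSBTAG00000019115, with an exact permutation p of 0.0736 for r and, for a rho of -0.55, of 0.0340 (adjusted p of 0.204), and its r was -0.39 without the 2 farthest stems.

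The weaker pairs did not hold more firmly. For ENSBTAG00000000744 with ENSBTAG00000013842, r within groups was 0.45 with an exact permutation p of 0.161, and it fell to 0.19 without N008 and N35. With plain library totals that pair alone passed, with an r of 0.75 and an adjusted exact permutation p of 0.0144. Among libraries of the same stem, r for ENSBTAG00000013842 with ENSBTAG00000023600 was 0.32, opposite in sign to its value between stems.

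A ratio of the counts of a pair of genes in the same stem does not depend on the library total or on TMM. The 4 ratios of a gene of the first pair to a gene of the second were formed after the values had been seen. Dividing genes chosen for opposite effects builds a separation of the diets into the ratio, so the values are a description from which nothing is read. The ratio of ENSBTAG00000000744 to ENSBTAG00000023600 was 0.755 to 2.47 in Nguni on high energy and 0.390 to 0.609 in Nguni on low energy. In Bonsmara it was 0.261 to 0.393 on high energy and 0.667 to 1.25 on low energy. The diets were apart in both breeds and in opposite directions, with means that differed 3.32-fold in Nguni and 3.0-fold in Bonsmara. The absolute value of a ratio reflects unknown gene lengths, so it is read only across stems.

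The ratio of ENSBTAG00000013842 to ENSBTAG00000019115 was 0.260 to 0.604 in Nguni on high energy, 0.0967 to 0.248 in Nguni on low energy, 0.0706 to 0.137 in Bonsmara on high energy and 0.280 to 0.440 in Bonsmara on low energy. That of ENSBTAG00000013842 to ENSBTAG00000023600 was 0.297 to 0.567, 0.0931 to 0.206, 0.0680 to 0.142 and 0.169 to 0.323 in the same order. Both were apart by diet in each breed. The ratio of ENSBTAG00000000744 to ENSBTAG00000019115 was apart in Bonsmara and overlapped in Nguni, where N11 on high energy had 0.798 and N1 on low energy had 0.813. With N1 and N11 exchanged this was the only ratio of the 4 whose diets were apart in both breeds.

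**Figure D4:**
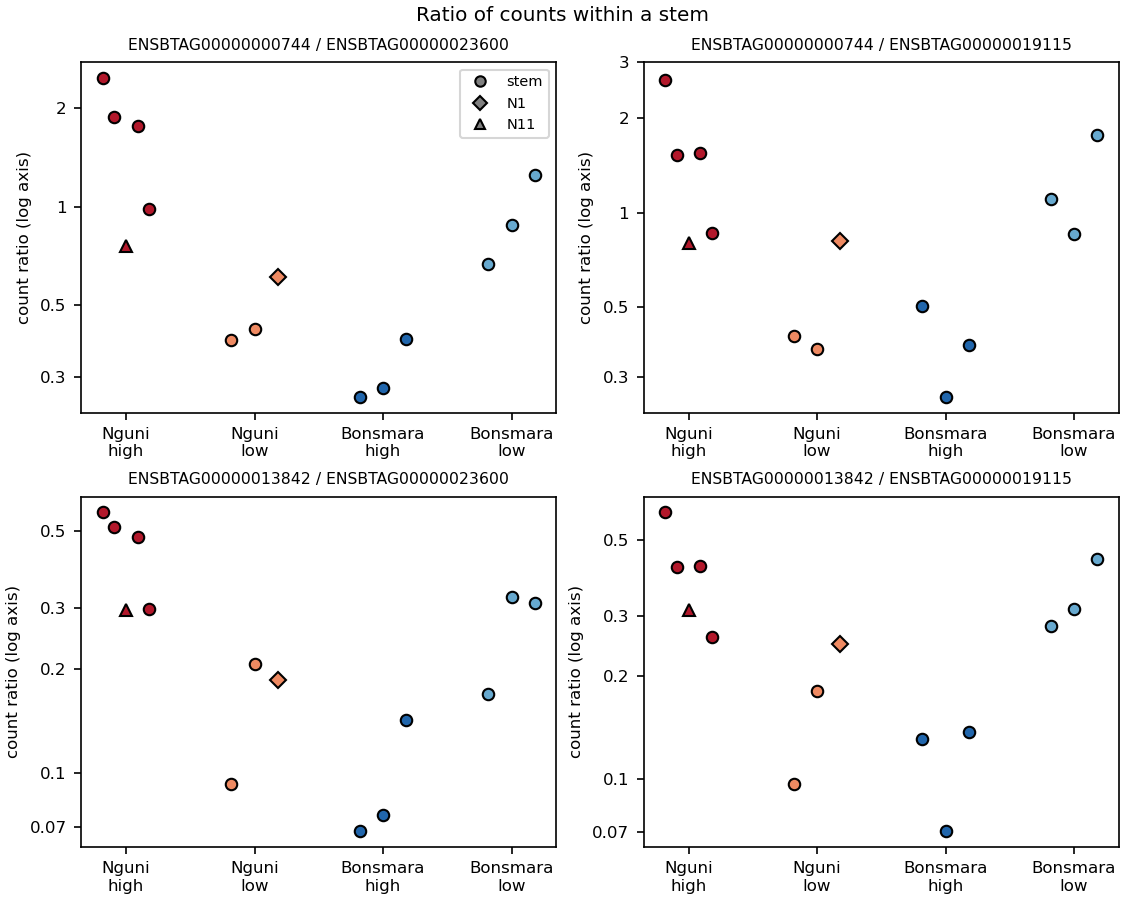
Ratio of the counts of a pair of genes within a stem (log axis), for the 4 ratios of a gene higher in Nguni on high energy to a gene lower there, 1 marker per stem; N1 is a diamond and N11 a triangle. For ENSBTAG00000000744 over ENSBTAG00000023600 the Nguni stems on high energy lie at 0.755 to 2.47 and those on low energy at 0.390 to 0.609, and the Bonsmara stems show the reverse order.

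The share of a stem's counts held by the 10 most abundant genes moved with the TMM-scaled CPM of some of the 4. It was 31.6% ± 5.26 (SD, n = 5) for high energy Nguni, 32.8% ± 5.08 (n = 3) for low energy Nguni, 39.6% ± 5.08 (n = 3) for high energy Bonsmara and 35.5% ± 7.28 (n = 3) for low energy Bonsmara. Within groups, the TMM-scaled CPM of ENSBTAG00000023600 was higher in stems with a larger share. Its r was 0.72 (exact permutation p of 0.0165, adjusted over the 4 genes 0.0462) and its rho was 0.82 (exact permutation p of 0.00536, adjusted 0.0215). Without the 2 stems farthest in share, B25 and B11, its r was 0.64. Correlations with the share were not computed with plain library totals, so they are read for TMM-scaled CPM only. In low energy Nguni the share ran from 28.1% to 38.2%. There ENSBTAG00000023600 had 18.3 to 27.8 CPM with TMM but 21.8 to 22.2 CPM with plain library totals. In low energy Bonsmara its plain CPM kept the order of the share, with 22.8, 20.8 and 18.9 in B11, B51 and B126.

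The TMM-scaled CPM of ENSBTAG00000000744 was lower in stems with a larger share. Its r was -0.60 (exact permutation p of 0.0231, adjusted 0.0462) and its rho was -0.54 (exact permutation p of 0.0633, adjusted 0.127). Without B25 and B11 its r was -0.68. For ENSBTAG00000013842 r was -0.44 (exact permutation p of 0.161) and for ENSBTAG00000019115 it was 0.38 (exact permutation p of 0.240). With the share as a covariate, the breed difference of the diet effect was 1.53, 1.31, -1.32 and -1.32 for ENSBTAG00000000744, ENSBTAG00000013842, ENSBTAG00000023600 and ENSBTAG00000019115. Under the same covariate, the breed difference on high energy of ENSBTAG00000000744 went from 0.99 to 0.64, and that of ENSBTAG00000023600 averaged over diets from -0.57 to -0.34. These relations and this covariate were examined after the data had been seen.

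Other genes had patterns more alike to each of the 4 than its partner was. The 3 genes with the highest r over the 14 stems had 0.88, 0.87 and 0.83 with ENSBTAG00000000744, 0.93, 0.92 and 0.92 with ENSBTAG00000013842, 0.93, 0.91 and 0.89 with ENSBTAG00000023600 and 0.89, 0.88 and 0.86 with ENSBTAG00000019115. All 12 had diet differences of the same signs as the gene they resembled, from 0.29 to 0.69 in size on the log2 scale in Nguni for those like the first pair. Their choice by r over the same stems, with group means left in, fixes much of this, so nothing is read from the shared signs. Ranked by the size of r among 13218 genes, ENSBTAG00000013842 was number 14 for ENSBTAG00000000744, and ENSBTAG00000000744 was number 241 for ENSBTAG00000013842. ENSBTAG00000019115 was number 168 for ENSBTAG00000023600. The 4 genes were thus not each other's closest neighbours over these stems.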

How the data were processed

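The authors deposited gene-level counts in 4 tables. They were treated as estimated counts, since Salmon is named, with Trimmomatic, FastQC and DESeq2, in the submitters' processing notes, which give no versions. Build, annotation and strand: not given in the sources used here. Per the labels' protocols, TRIzol was used for extraction and TruSeq for the libraries. The 42 libraries, each deposited identically in a second table, were taken once; of 56 labelled samples 14 were not analysed here.

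Libraries were summed by title stem. The filter of edgeR (filterByExpr, minimum count 10) left 13219 genes with 99.97% of counts. A single robust quasi-likelihood model in edgeR 4.0.16 (R 4.3.3, TMM) had a mean for each group, 10 residual degrees of freedom and a biological coefficient of variation of 0.414. All p-values are two-sided and adjusted by Benjamini-Hochberg. Those of the fits were adjusted over all tested genes, and those of the exact tests over the 6 pairs or the 4 genes. For edgeR, SE is the log2 difference divided by the root of F. Correlations used log2 of CPM plus 0.5, and exact tests used 25920 arrangements. The procedure was tested on simulated data.

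The members and lists were chosen with earlier results of these data known. The 4 members were described in full, and the 3 genes of highest r to each were described without IDs. Lists of pathway genes and cell markers could not be applied, because no ID could be named. Alternatives were DESeq2 1.42.0, limma 3.58.1 (voom with quality weights), other scaling, no filter, only the groups compared, N1 and N11 exchanged or left out, subsets of libraries and each stem left out. As additions made after seeing the data, the top 10 genes' share of counts was a covariate, B6_1 was left out, libraries were weighted equally and the ratios were formed.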

Additional observations from a re-analysis of the deposited data

How the results depend on the processing

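No paired analysis was possible because the suffix of a title numbers libraries within a stem and no stem occurs in more than 1 group. The direction of the breed difference of the diet effect for the 4 genes was the same in 112 of 112 alternative values, and that of diet in each breed in 116 of 116. The alternatives refit the same stems or subsets of them, for genes chosen by this contrast, so nothing is read from this agreement. In edgeR 0 genes were called in each comparison. DESeq2 tested 13040 genes and called 1 for diet in Nguni, 2 for diet in Bonsmara and 1 for breed on low energy. It called 27 for breed on high energy, ENSBTAG00000023600 among them. That call is a description, since this contrast is part of the one that chose the gene. DESeq2 also called 14 for breed averaged over diets and 1 for diet averaged over breeds, and limma called 2 for breed averaged over diets. Leaving out a stem gave 0 to 1 for breed on high energy and for breed averaged over diets, the 1 being without N37. The genes at an unadjusted p under 0.05 for the breed difference of the diet effect numbered 261 (without B126) to 1989 (limma).

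Averages near 0 changed sign. Averaged over breeds, ENSBTAG00000000744 had a log2 diet difference of 0.082 without N1 and N11, 0.10 with suffix 2 alone, 0.016 with the top 10 share as covariate, 0.047 without B6_1 and 0.018 with equal weights, and -0.093 to 0.051 when single stems were left out. ENSBTAG00000013842 had 0.13 with suffix 1 and 0.14 with suffix 3. ENSBTAG00000023600 had 0.080 with limma, 0.0038 with N1 and N11 exchanged and 0.13 with suffix 3, and -0.20 to 0.0062 without single stems. ENSBTAG00000019115 had -0.014 with plain totals, -0.063 without N1 and N11, -0.25 with suffix 3 and -0.011 without B6_1, and -0.066 to 0.14 without single stems. Averaged over diets, the breed difference was -0.018 (suffix 3) and -0.12 (top 10 share) for ENSBTAG00000000744 and -0.11 (suffix 3) for ENSBTAG00000013842. The cause was not tested. Of the 6 pairs, 1 passed within groups with plain CPM. There r of ENSBTAG00000013842 with ENSBTAG00000019115 was 0.28. With the top 10 share regressed out, r of ENSBTAG00000000744 with ENSBTAG00000023600 was 0.24.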
